A study of Mus musculus with 3 samples.

Results

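The genes described here are those of the receptor for TWEAK, a cytokine of the tumour necrosis factor (TNF) family, and of the NF-kappaB pathway behind it. They were followed in mouse gastrocnemius, a calf muscle, after tamoxifen. All probe sets whose symbol in the platform annotation was Tnfrsf12a, Tnfsf12, Traf2, Map3k14, Nfkb1, Nfkb2, Rela, Relb or Nfkbia were taken. Of these 9 genes, 7 had a probe set of their own, 14 probe sets in all, out of 18193 annotated genes and 45101 probe sets on the array. Tnfrsf12a was chosen with its readings on these arrays known, so its values are given as a description.

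Each group was 1 Affymetrix Mouse 430 2.0 array hybridised with RNA pooled from 3 to 4 mice. The groups were tamoxifen for 48 h, tamoxifen for 24 h and oil, the vehicle, for 24 h. Mice of all 3 groups were of the C57BL/CD1 strain and carried a genotype labelled Akt_Cre transgenic: Akt, a growth kinase of the insulin pathway, made only in skeletal muscle as a fusion with a domain that binds oestrogen. Tamoxifen is said in the labels to stabilise this fusion, and the muscle then grows. The promoter, the part played by Cre, and the age and sex of the mice are not given in the sources used here. Neither a 48 h vehicle array nor a tamoxifen array from mice lacking the transgene was analysed here, so time, tamoxifen itself and Akt cannot be told apart at 48 h, nor tamoxifen and Akt at 24 h. Single arrays give neither a replicate error nor a test. A gene is called different only by a size rule of 2-fold or more, and no statement below measures variation between mice.

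TWEAK, the product of Tnfsf12, binds the small membrane receptor Fn14, the product of Tnfrsf12a. Fn14 was named as a growth factor-inducible gene; it is scarce in resting muscle and is known to become abundant in mouse muscle after denervation or injury. Its short tail recruits TRAF adaptors such as Traf2. The signal passes to IkappaB kinases, which release Rela from its inhibitor Nfkbia (the classical branch), and to the kinase NIK, the product of Map3k14, which has the Nfkb2 precursor processed into a partner for Relb (the alternative branch). Nfkbia, Nfkb2 and Relb are themselves known targets of NF-kappaB.

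The stretch before the start of Tnfrsf12a is shown because this gene moved most, and those before Nfkbia and Nfkb2 because both are known NF-kappaB targets that moved little. They are RefSeq sequences of GRCm38.p6, the 250 bases before the annotated start, written 5′ to 3′ on the gene's strand. Capitals mark the GC box (GGGCGG, on either strand) in Tnfrsf12a and the NF-kappaB consensus (either strand, overlapping matches joined) in the others.
Tnfrsf12a, chr17:23677450-23677699, minus strand: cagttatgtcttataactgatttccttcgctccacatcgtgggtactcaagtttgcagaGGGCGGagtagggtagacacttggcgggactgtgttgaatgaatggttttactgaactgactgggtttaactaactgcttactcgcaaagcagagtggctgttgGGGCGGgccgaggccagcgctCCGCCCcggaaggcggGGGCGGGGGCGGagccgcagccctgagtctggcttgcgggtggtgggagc
Nfkbia, chr12:55492648-55492897, minus strand: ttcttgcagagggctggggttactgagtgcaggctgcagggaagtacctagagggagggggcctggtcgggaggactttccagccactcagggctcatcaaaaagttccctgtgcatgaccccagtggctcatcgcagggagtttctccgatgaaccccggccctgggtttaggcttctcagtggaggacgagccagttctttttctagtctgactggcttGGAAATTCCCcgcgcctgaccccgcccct
Nfkb2, chr19:46304487-46304736, plus strand, the most upstream of its 3 annotated starts: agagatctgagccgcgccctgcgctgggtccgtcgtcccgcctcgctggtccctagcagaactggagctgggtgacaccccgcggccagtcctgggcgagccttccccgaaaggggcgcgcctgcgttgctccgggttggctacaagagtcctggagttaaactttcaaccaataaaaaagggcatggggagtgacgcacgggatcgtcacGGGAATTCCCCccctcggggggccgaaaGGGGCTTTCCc

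The Tnfrsf12a window held 5 GC boxes, the nearest 44 bases before the start and the farthest at 191. GC boxes stood in 32.7% of all 32851 such windows, so their presence is common. The NF-kappaB consensus was not among its letters, and a looser form (GGG and CC with 5 bases of any kind between them), found in 45.8% of windows on either strand, occurred at 2 places that overlap the GC boxes. The consensus stood once in the Nfkbia window, 29 bases before the start, and at 3 overlapping or neighbouring places in the Nfkb2 window shown; 7.25% of all windows hold it. It also stood once in each of the other 2 Nfkb2 windows, and in none of those of Traf2, Map3k14 and Rela. AP-1 (TGANTCA, 6.75% of windows), CRE (TGACGTCA, 1.55%), FoxO (GTAAACA, 3.17%) and CArG (1.47%) letters were not found before Tnfrsf12a. These are matches of letters in 1 short window and show no binding. Windows were found for 6 of the 9 genes, and none was matched for Tnfsf12, Nfkb1 and Relb.

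Intensities below are the authors' linear values scaled to a common median, and a ratio is given as a log2 value or as a fold between arrays of the same probe set. Levels of different probe sets are not compared. A gene is read on its highest-ranking probe set among those at or above a mean percentile rank of 0.5, which 12 of the 14 probe sets and all 7 genes passed. Over all genes with several such probe sets, ratios of the same gene spread with a pooled SD of 0.49 at 24 h and 0.41 at 48 h against oil, on the log2 scale. Probe sets of a gene can read different transcripts, and the sources of this spread were not separated. Counts of list genes below are on the main probe set of each gene. All 8 muscle fibre markers of the labelled tissue were read far above the floor, at scaled intensities of 5458 to 11388. The markers Ckm, Acta1, Myh4, Myh1, Tnnt3, Actn3, Mylpf and Pygm had log2 ratios to oil between -0.18 and 0.12 at 48 h and between -0.26 and 0.21 at 24 h. Tnnt3 held the highest deposited value on every array, and whether such bright probe sets were saturated was not tested, so these flat ratios say little about change. Other kept probe sets of Ckm, Myh4 and Myh1 differed from these (at 48 h and 24 h 1.499 and 0.89 in log2 over oil for 1 of Myh1, -0.37 and -0.68 for that of Myh4, and 0.69 and 0.52 for that of Ckm). Ratios of the 3′ to the 5′ control probe sets, a sign of RNA integrity, were 0.826 at 48 h, 0.867 at 24 h and 0.846 on oil for Gapdh, and 1.101, 0.951 and 0.976 for beta-actin.

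Tnfrsf12a, at chr17:23675445-23677449 on GRCm38.p6, stood apart from the rest of the measured genes. Its main probe set gave 1445 at tamoxifen 48 h, 300.4 at tamoxifen 24 h and 130.4 with oil. The ratio to oil was 3.47 in log2 (11.1-fold) at 48 h and 1.20 (2.30-fold) at 24 h, and that of 48 h to 24 h was 2.27 (4.81-fold). The order of the arrays was 48 h, then 24 h, then oil, and each step was more than 2-fold. A second probe set, whose name marks probes that may also match other sequences, gave the same order. It read 1290.0 at 48 h, 354 at 24 h and 118 on oil, or 3.45 in log2 over oil at 48 h and 1.59 at 24 h. As deposited, without scaling, the main probe set read 1374, 318 and 129 in the same order of arrays. Among 11092 genes compared, Tnfrsf12a had the 5th highest ratio to oil at 48 h, the 151st at 24 h and the 7th of 48 h to 24 h. At 24 h it therefore lay among many genes of similar ratio, and at 48 h near the end of the distribution.

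**Figure D1:**
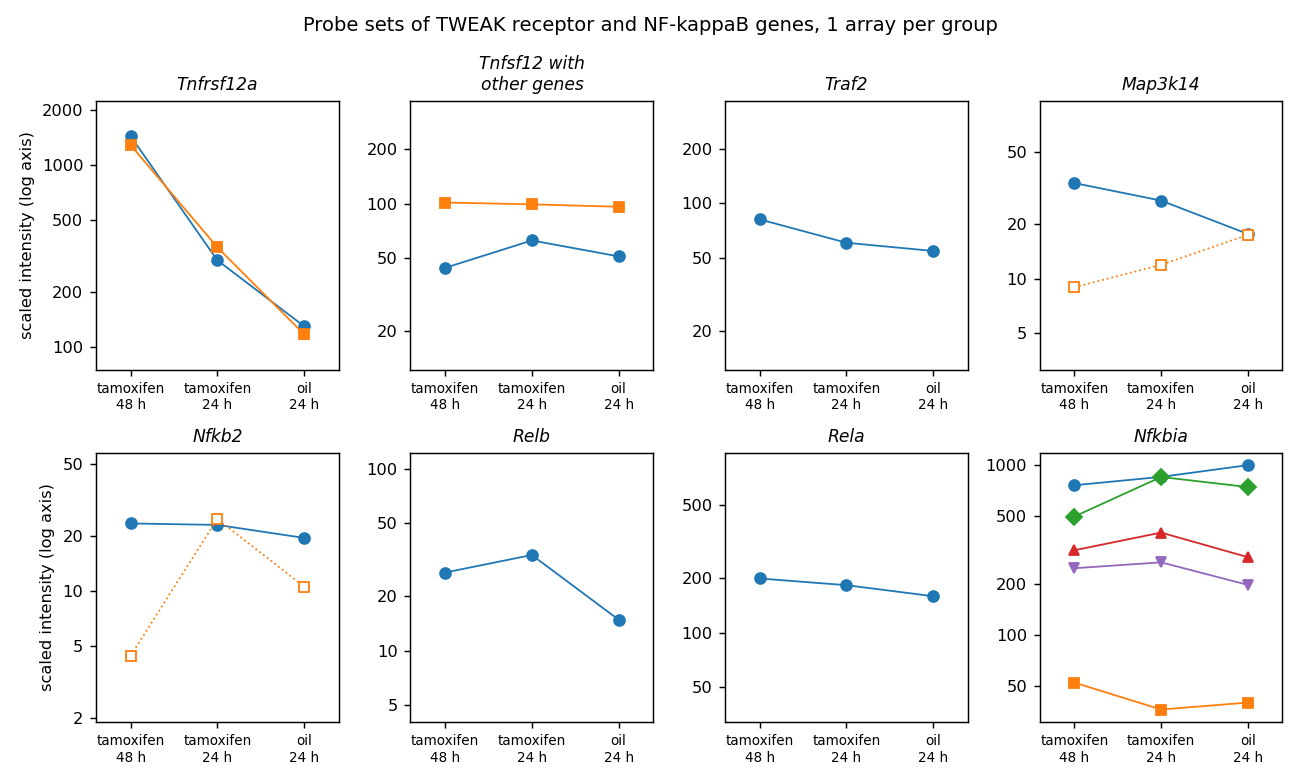
Scaled intensity (log axis; every panel spans at least 30-fold but at its own level) of each probe set on the tamoxifen 48 h, tamoxifen 24 h and oil 24 h arrays, 1 point per array. Filled symbols and solid lines are probe sets at or above a mean rank of 0.5, and open symbols with dotted lines are those below it. The Tnfrsf12a probe sets stand at 1445 and 1290.0 at 48 h, against 130.4 and 118 on oil, while the kept probe sets of the other genes stay within 2-fold of oil, except Relb at 24 h.

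The ligand could not be read on its own. Both probe sets that list Tnfsf12 also list Tnfsfm13, a transcript running from Tnfsf12 into Tnfsf13, and 1 of them lists Tnfsf13 as well. The probe set listing Tnfsf12 and Tnfsfm13 read 101 at 48 h, 99.2 at 24 h and 96.2 on oil. The one listing all 3 genes read 44.4, 62.8 and 51.3 on these arrays. Neither probe set was 2-fold different between any pair of arrays, and the transcript behind each value is not known. Nfkb1, which encodes the usual partner of Rela, was listed on no probe set and was not analysed here.

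The adaptor Traf2 read 81.7 at 48 h, 60.8 at 24 h and 54.8 on oil. The ratio to oil was 0.58 in log2 (1.49-fold) at 48 h and 0.15 at 24 h. Map3k14, the NIK kinase of the alternative branch, read 33.5 at 48 h, 26.9 at 24 h and 17.6 on oil, with log2 ratios to oil of 0.93 (1.90-fold) and 0.61 (1.53-fold). Its other probe set, below the rank minimum with a mean rank of 47.2%, went the opposite way, at 8.97, 11.9 and 17.4. The direction of Map3k14 therefore rests on 1 probe set.

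Among the Rel proteins, Relb passed the 2-fold rule at 24 h. This partner of the alternative branch read 26.8 at 48 h, 33.5 at 24 h and 14.8 on oil. Its ratio to oil was 0.86 in log2 (1.82-fold) at 48 h and 1.18 (2.27-fold) at 24 h, on its only probe set. Both tamoxifen arrays were above oil, and the 24 h array was the highest. On oil its deposited value of 14.7 lay below the array median of 15.2, so Relb reached the rank minimum through the tamoxifen arrays. Such dim genes move often: of 1741 genes with a mean rank from 50% to 62.5%, 4.54% were at least 2-fold higher at 24 h, against 1.79% of the 3524 genes of the top rank band. Nfkb2 read 23.5 at 48 h, 23.0 at 24 h and 19.5 on oil, with log2 ratios to oil of 0.26 and 0.24. Its second probe set, at a mean rank of 42.8% and below the minimum, read 4.40, 24.9 and 10.6 and did not follow the first. Rela, the main activating subunit of the classical branch, read 198 at 48 h, 182 at 24 h and 158 on oil, or 0.32 and 0.20 in log2 over oil. None of these Rel genes was 2-fold different at 48 h.

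Nfkbia, the inhibitor that NF-kappaB itself induces, had 5 kept probe sets, which differed in direction. The main one read 760.5 at 48 h, 852 at 24 h and 998 on oil, with log2 ratios to oil of -0.39 and -0.23. Another read 498 at 48 h, 850.4 at 24 h and 742 on oil, and another 316, 401 and 288. The remaining ones read 247, 268 and 198, and 52.7, 36.6 and 40.2, on the same arrays. At 48 h 2 of the 5 lay below oil and 3 above, and the log2 ratios ran from -0.58 to 0.39. At 24 h they ran from -0.23 to 0.48. No Nfkbia probe set was 2-fold different from oil at either time.

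Taking the 7 genes as a list, 1 was at least 2-fold higher at 48 h against oil (Tnfrsf12a), where 3.72% of all genes were higher and 6.44% were past 2-fold in either direction. At 24 h 2 were higher (Tnfrsf12a and Relb), against 2.35% higher and 4.83% in either direction. For 48 h against 24 h it was 1 (Tnfrsf12a), against 1.8% higher and 3.22% in either direction. None was 2-fold lower, against backgrounds of 2.71%, 2.48% and 1.42% in the same order of comparisons. Tnfrsf12a was chosen with its readings known and enters each of these counts and the medians below. Apart from it, only Relb at 24 h passed the rule, so the counts describe the list and lend it no support. The median log2 ratio of the 7 genes was 0.58 at 48 h and 0.24 at 24 h against oil, beside 0.01 and 0.04 for all genes, and 0.12 beside -0.02 for 48 h against 24 h. The last median was -0.09 with arrays scaled to the median of all probe sets, where that of all genes was -0.24, and -0.03 beside -0.18 with unscaled values, so these scalings moved members and all genes alike. Both comparisons with oil use the same oil array, so they are not independent of each other.

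**Figure D2:**
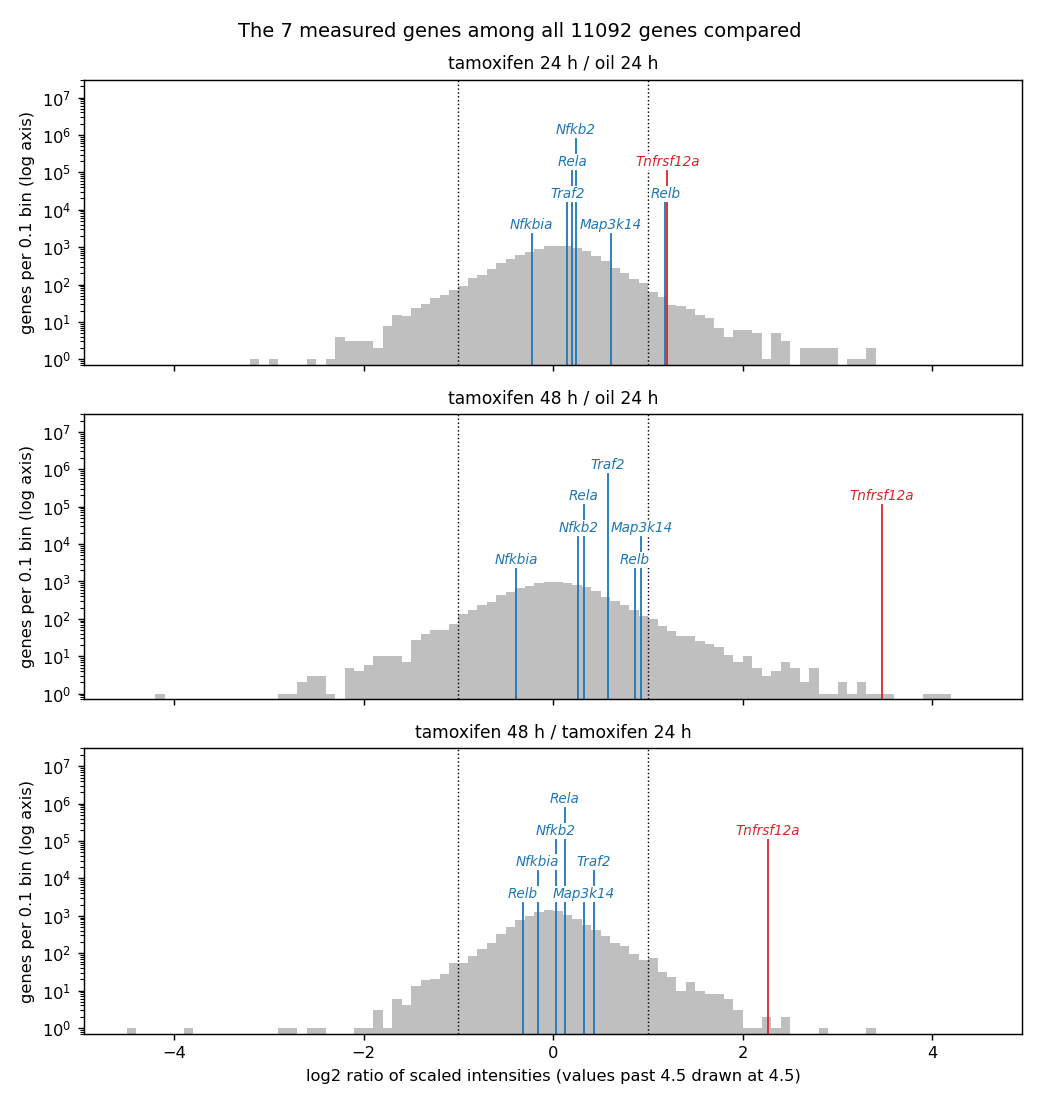
Number of genes (log axis) by log2 ratio in each of the 3 comparisons, for all 11092 genes (grey), with the 7 measured genes as lines (their heights carry no value) and the 2-fold limits dotted. Tnfrsf12a (red) lies at 1.20, 3.47 and 2.27 in the panels from top to bottom, and the other 6 genes lie between -0.39 and 1.18.

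Other receptors and ligands of the TNF family came from a list of pathway genes. Of 27 other receptors, 13 could be compared, 13 fell below the rank minimum and 1 had no probe set of its own. At 48 h and at 24 h alike, 1 of the 13 was at least 2-fold higher and 2 were lower. Of all genes, 3.72% were higher and 2.71% lower at 48 h, and 2.35% and 2.48% at 24 h. Relt, an orphan receptor of the family, read 104 at 48 h, 94.5 at 24 h and 44.2 on oil, 2.35-fold and 2.14-fold higher than oil. Eda2r, a receptor for a form of ectodysplasin, read 64.3, 46.8 and 159 and was 2.48-fold and 3.41-fold lower. Tnfrsf19 read 23.7, 27.1 and 55.9, 2.36-fold and 2.07-fold lower, but its other kept probe set stood at log2 ratios of 0.31 and -0.20, and averaging both brought it within 2-fold at both times, as did all 3 other scalings at 24 h. The median log2 ratio of these receptors was 0.16 at 48 h, with 0.05 at 24 h. Of 17 other ligands 2 could be compared, and 12 lay below the minimum, Tnf among them. Tnfsf10 (TRAIL) stood at log2 ratios of -0.67 at 48 h and 0.11 at 24 h and Eda (ectodysplasin) at 0.65 and 0.54.

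The machinery between receptor and Rel proteins showed small differences from oil. None of 15 adaptors and ubiquitin enzymes, 9 IkappaB kinase components and upstream kinases, or 4 other Rel and IkappaB proteins was 2-fold different from oil at either time on its main probe set. Of all genes, 6.44% were past 2-fold at 48 h and 4.83% at 24 h. Other kept probe sets passed 2-fold for Ikbkg, the regulatory subunit of the IkappaB kinase complex, with log2 ratios of up to 1.82 at 48 h and 1.15 at 24 h (lowest -0.49 and -0.80), and for Map3k7 at 48 h. Birc3, a ubiquitin ligase that binds TRAF adaptors, read 41.6 at 48 h, 42.6 at 24 h and 75.02 on oil, with log2 ratios of -0.85 and -0.82. Tnfaip3 (A20), a ubiquitin-editing inhibitor of NF-kappaB, read 73.1, 35.6 and 57.8. It was 2.05-fold higher at 48 h than at 24 h, and within 2-fold under all 3 other scalings tried. Otulin, which removes linear ubiquitin chains, stood at 0.56 and 0.43 in log2 over oil. Among kinases, Map3k7 (TAK1), which activates the IkappaB kinases, read 153 at 48 h, 70.8 at 24 h and 123 on oil, 2.16-fold higher at 48 h than at 24 h. Its 3 other kept probe sets stood above oil, at log2 ratios of 0.47 to 1.25 at 48 h and 0.22 to 0.69 at 24 h, where this one stood at 0.32 and -0.79, and the gene was within 2-fold between the times on the mean of its probe sets and under 2 other scalings. Map3k1 had log2 ratios to oil of 0.79 and 0.13 and Tbk1 of -0.37 and -0.61. Of the other Rel and IkappaB proteins, Nfkbib stood at 0.48 and 0.18, Nfkbiz at -0.30 and -0.17, and Commd1, which limits NF-kappaB, at 0.41 and 0.49. The medians at 48 h and 24 h were 0.11 and 0.02 for the adaptors, 0.04 and 0.11 for the kinases, and 0.12 and 0.00 for the other Rel and IkappaB proteins. Chuk, Traf3 and Ripk1 were listed on no probe set alone and are left out.

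As a list, the known NF-kappaB target genes outside the members that could be compared did not follow Tnfrsf12a. Of the targets among the members, Relb was 2.27-fold higher than oil at 24 h. Nfkb2 and Nfkbia were within 2-fold of oil at both times on their kept probe sets. Of 35 listed, 17 could be compared and 17 lay below the rank minimum, among them Il6, Il1b, Tnf and Cxcl10. On the main probe sets, 1 of the 17 was at least 2-fold different from oil at each time, beside 6.44% of all genes at 48 h and 4.83% at 24 h. This was Lcn2, which encodes the secreted protein lipocalin 2. It read 86.1 at 48 h, 129 at 24 h and 17.7 on oil, 4.85-fold and 7.26-fold higher. Ratios above 0 numbered 7 of 17 at 48 h and 3 of 17 at 24 h, beside 5613 and 5988 of 11092 genes. The median for these targets was -0.14 at 48 h and -0.32 at 24 h, and both were below 0 under all 10 alternatives. Other kept probe sets passed 2-fold for the stress-response gene Gadd45b, at log2 ratios of -1.42 at 48 h and -1.73 at 24 h, and for the chemokine Cxcl1, at 1.06 at 48 h. Myc, a growth regulator, read 33.1, 17.9 and 30.9. Birc3 and Tnfaip3 belong to this list too and are given above.

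Markers of cells that could carry such signals were read beside these lists. Of 3 neutrophil markers compared, S100a8 and S100a9 were lower at 48 h, by 3.24-fold and 4.08-fold against oil. The summed level of the list was 59.5 at 48 h, 105 at 24 h and 169 on oil. The 8 macrophage markers summed to 1767, 2089 and 2008 on the same arrays, and only Cd163, a marker of resident macrophages, was 2-fold different (2.10-fold lower at 48 h, and just within 2-fold when scaled to all probe sets). The sums were 705, 908 and 965 for 6 endothelial markers and 12834, 12520 and 13994 for 6 fibroblast markers. Such sums lean on the brightest probe sets. At 24 h 4 of the 6 endothelial markers lay above oil, with a median log2 ratio of 0.19, although their sum was lower. The endothelial median at 48 h was -0.38. Of the fibroblast markers, Col1a1 was 2.26-fold higher at 48 h on 1 probe set, while another stood at 0.13 in log2. Within the 4 satellite cell markers, summing to 449, 373 and 294, Cdh15 was 3.46-fold higher at 48 h and 2.38-fold at 24 h. The others were within 2-fold, with Myod1 at a log2 ratio of 0.43, Myf5 at -0.35 and Pax7 at -0.45 at 48 h, and the median of the 4 was 0.04, so the higher sum lay in Cdh15 and Myod1. Of 7 lymphocyte markers with a probe set, 1 could be compared, Ptprc, at 61.0, 62.4 and 89.8, and Cd4 was at the floor on every array. The part of these cells in the values of Tnfrsf12a, Relb and Lcn2 was not tested. In whole muscle, fewer cells of a type and less RNA per cell cannot be told apart.

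Genes known in mice to respond to TWEAK in muscle included the ubiquitin ligases of muscle wasting. Of 11 such genes, none was at least 2-fold higher, 2 were lower at 48 h and 3 at 24 h. Of all genes, 2.71% were lower at 48 h and 2.48% at 24 h. The list was not split by the direction in which TWEAK moves each gene. Its counts and medians therefore do not show whether these genes went with or against TWEAK. Fbxo32 (atrogin-1) read 75.8 at 48 h, 93.3 at 24 h and 490 on oil, with log2 ratios of -2.69 and -2.39, and its other kept probe sets lay lower still, at -3.29 to -4.10. Trim63 (MuRF1), which TWEAK is known to raise in mouse muscle, read 1149, 744 and 2111, 2.84-fold lower than oil at 24 h and 1.84-fold at 48 h. Klf15, a metabolic transcription factor, read 73.1, 125 and 253, 3.46-fold lower at 48 h and 2.02-fold at 24 h. The 24 h call was lost with unscaled values and under the scaling to all probe sets, where the log2 ratio was -0.72. The median of the 11 was -0.35 at 48 h and -0.20 at 24 h, the latter beside 0.04 for all genes. Under the scaling to all probe sets the 24 h median was 0.10, where that of all genes was 0.33. This scaling shifts list and all genes alike, so it could not change which of the medians was lower. A further kept probe set of Becn1, an autophagy gene of this list, stood at -1.27 at 48 h, against -0.19 on its main one.

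The last lists cover settings in which Tnfrsf12a is known to be induced, denervation and growth factor exposure. Of 14 denervation genes, 11 could be compared, 2 (Chrng and Chrnd) lay below the rank minimum and 1 had no probe set of its own. Among the 11, 2 were at least 2-fold higher than oil at 48 h and none at 24 h, beside 3.72% and 2.35% of all genes. Chrna1, a subunit of the muscle acetylcholine receptor, read 360.1 at 48 h, 182 at 24 h and 120.2 on oil, 3.00-fold higher at 48 h. Myog, a myogenic transcription factor, read 127, 59.2 and 62.6, 2.02-fold higher at 48 h (within 2-fold unscaled, at a log2 ratio of 0.96), and Runx1 read 38.9, 23.6 and 19.8 (1.97-fold). The medians were 0.35 and 0.12, and ratios lay above 0 for 9 of the 11 at 48 h and 7 at 24 h. Of 14 immediate early and serum response genes, Egr1 (393, 193 and 115) was 3.41-fold higher at 48 h, and Atf3, a stress factor (82.6, 58.0 and 28.1), was 2.94-fold higher at 48 h and 2.06-fold at 24 h. Jund, an AP-1 subunit, was 2.09-fold lower at 24 h (216, 144 and 301). That call was lost with unscaled values and under the scaling to all probe sets, where its log2 ratio to oil was -0.77. The medians of this list were 0.10 at both times. In these last lists other kept probe sets passed 2-fold for Ncam1 (-1.08 at 24 h), Srf (1.11 at 48 h) and Klf6 (-1.18 at 24 h), while their main ones did not. These genes, Becn1, Ikbkg, Gadd45b, Cxcl1, Myod1, Myf5 and Pax7 lie outside the naming rule and were chosen after their values were seen.

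**Figure D3:**
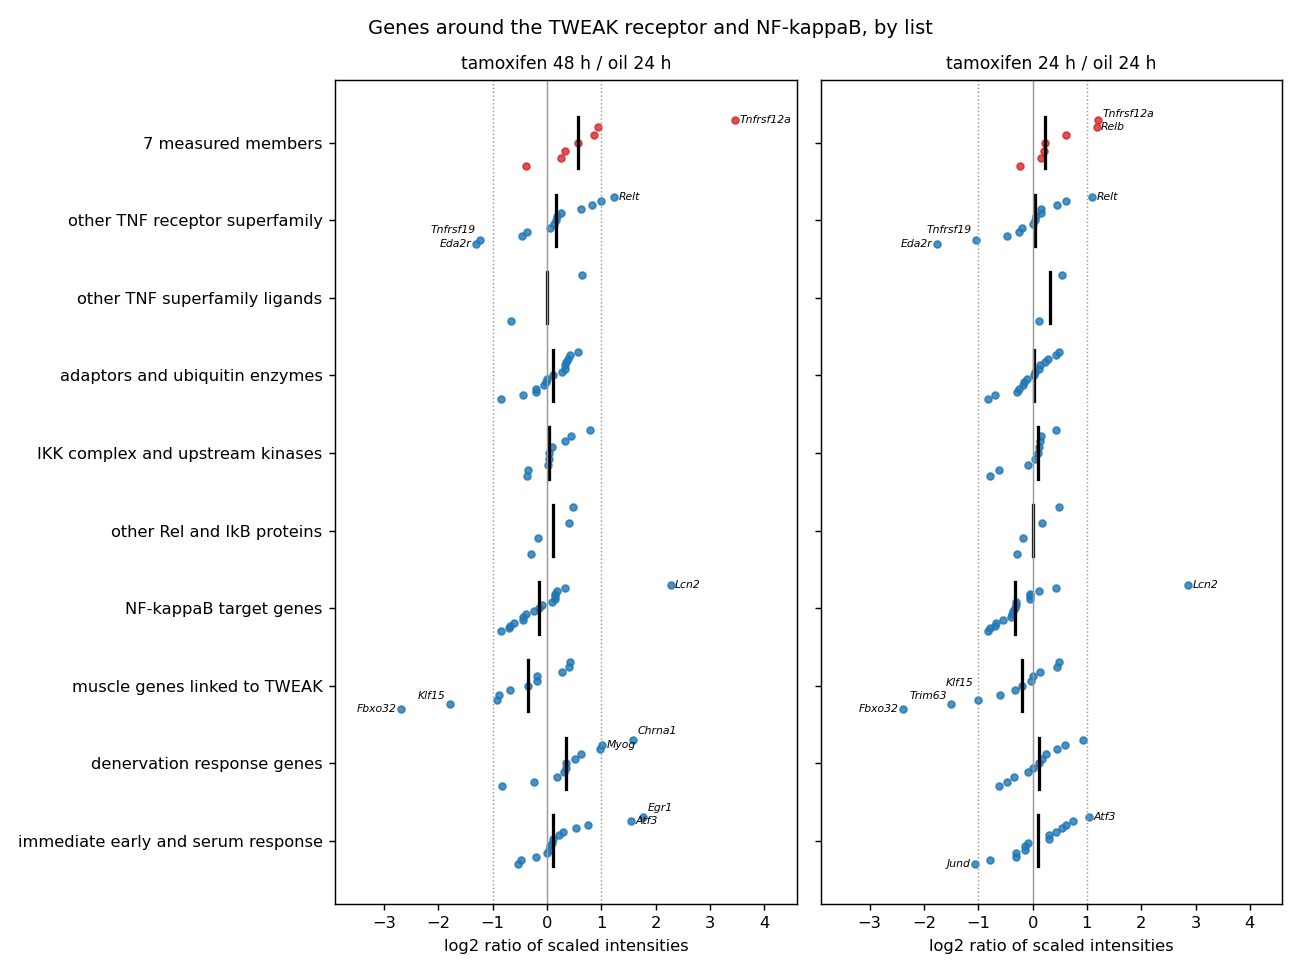
Log2 ratio to the oil 24 h array for each compared gene (points, ordered by value within a list) of the 7 measured members (red) and of 9 lists around them (blue), at tamoxifen 48 h (left) and 24 h (right); black bars are list medians and dotted lines mark 2-fold. Named points are past 2-fold, and Tnfrsf12a at 3.47 is the farthest point on the left panel, followed by Fbxo32 at -2.69.

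The 8 genes whose pair of ratios to oil lay nearest to that of Tnfrsf12a, by Euclidean distance in log2 over both ratios and so over 3 arrays, were Atp1b4, Ddc, Angptl4, Jup, Dmpk, Nr4a3, Hoxa4 and G0s2. The distances ran from 0.53 for Atp1b4 to 1.06 for G0s2. Atp1b4, a muscle relative of sodium pump subunits, read 257 at 48 h, 71.2 at 24 h and 21.6 on oil. Ddc, an amine-forming decarboxylase, read 67.5, 28.1 and 7.33. Angptl4, a secreted inhibitor of lipoprotein lipase, read 187, 46.7 and 28.3. Like Tnfrsf12a, all 8 had their highest reading at 48 h and their lowest on oil. Jup (plakoglobin, a junction protein) read 570.2, 264 and 97.3, and Dmpk, a muscle protein kinase, read 671, 281 and 122. The nuclear receptor gene Nr4a3 read 37.3, 21.5 and 5.49, Hoxa4 read 69.1, 23.7 and 12.6, and G0s2, an inhibitor of triglyceride breakdown, read 1381, 665 and 258. For 7 of them the log2 ratio of 48 h to 24 h was lower than the 2.27 of Tnfrsf12a by more than 0.4, and for Angptl4 it was 2.00. These genes were picked for their likeness, so the resemblance itself is no finding. On oil, Ddc, Nr4a3 and Hoxa4 read below the deposited array median of 15.2, and Nr4a3 lay near the floor of 4.05. Their ratios therefore rest on dim oil readings, and they reached the rank minimum through the tamoxifen arrays.

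**Figure D4:**
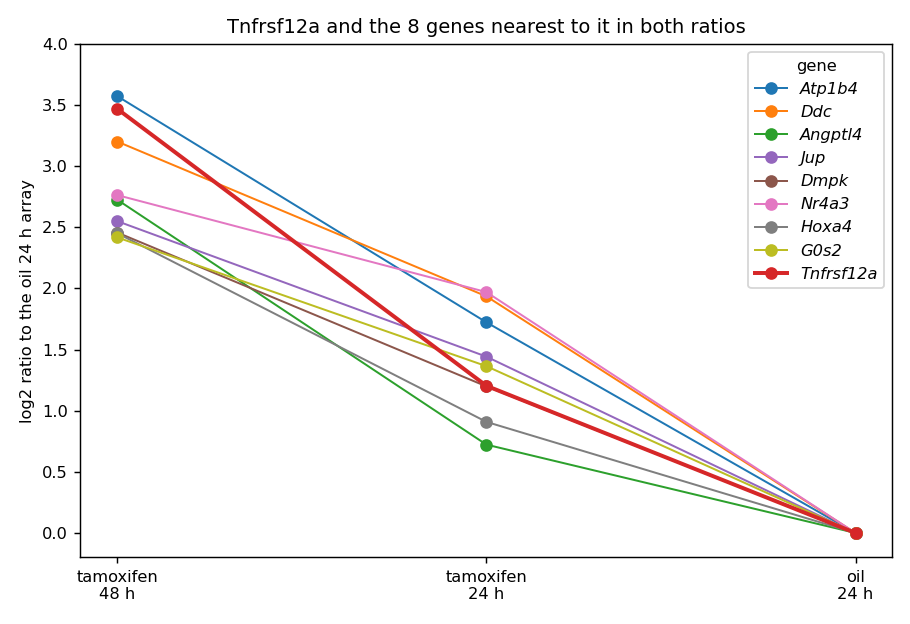
Log2 ratio to the oil 24 h array (oil at 0) on the tamoxifen 48 h, tamoxifen 24 h and oil 24 h arrays for Tnfrsf12a (red, thick) and the 8 genes nearest to it, 1 point per gene and array. At 24 h the genes lie between 0.72 (Angptl4) and 1.97 (Nr4a3), and at 48 h between 2.42 (G0s2) and 3.57 (Atp1b4).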

How the data were processed

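RNA of gastrocnemius pools was measured on 3 arrays. The authors deposited 1 linear intensity for each probe set on each array; summary, background correction and scaling are not given in the sources used here. Of 45101 probe sets, 64 controls were set aside; 34945 had 1 gene, 932 several and 9160 were not listed. Older symbols were replaced, by Entrez identifier, with those in RefSeq's GRCm38.p6 table. Probe sets with a mean percentile rank of 0.5 or more were kept (21804; 11092 genes, each on its highest-ranking one). Arrays were scaled to 1 median over kept probe sets, by 1.05 (48 h), 0.944 (24 h) and 1.01 (oil), a floor of 4.05 (25th percentile) was set, and log2 ratios were taken in Python 3.11.15. No value of the 7 genes was at the floor. The number of arrays limits the precision.

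The members and lists were chosen from general knowledge with earlier results of these data known. Named genes were all members, up to 3 genes per list by size of ratio to oil, all list genes and markers past 2-fold, the 8 nearest patterns, and genes beside Tnfrsf12a and Tnfsf12. Other scalings, filters, floors and probe set choices were tried. The calculation was tested on simulated data.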

Additional observations from a re-analysis of the deposited data

How the results depend on the processing

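Tnfrsf12a stayed past 2-fold in all 3 comparisons under all 10 alternatives, with log2 ratios of 3.41 to 3.55 (48 h against oil), 1.14 to 1.59 (24 h against oil) and 2.05 to 2.27 (48 h against 24 h). Its main probe set had a mean rank of 91.5% and readings far above the floors, so the filters and floors could not move its ratios. Choosing the probe set of largest ratio could not make them smaller. Only the other scalings and the mean of its probe sets could have done so. Relb stayed past 2-fold at 24 h under the 9 alternatives that kept it (1.18 to 1.47). It has 1 probe set, so filters that keep it and the choice of probe set could not move its ratio. The other scalings gave 1.28 (unscaled), 1.36 (quantile normalization) and 1.47 (median of all probe sets). Members past 2-fold at 48 h against oil numbered 2 with quantile normalization and with scaling to the median of all probe sets, where Map3k14 reached log2 ratios of up to 1.04. At a rank minimum of 0.75, 3 members could be compared and 1 passed at 24 h. No called value of a member changed sign. Uncalled signs did: Nfkbia against oil at 24 h ran from -0.34 to 0.48, and for 48 h against 24 h Nfkb2 ran from -0.19 to 0.03 and Rela from -0.09 to 0.14. Counts over all genes (main 536 at 24 h, 714 at 48 h and 357 for 48 h against 24 h) were 1737, 1914 and 1443 at a rank minimum of 0.25, 182, 300.0 and 84 at 0.75, 1931, 2139 and 1589 with no filter, and 1139, 1186 and 853 on the probe set of largest ratio; these test more, fewer or other probe sets. With scaling to all probe sets, 816 passed at 24 h. Higher genes made up 48.7%, 57.8% and 56.0% of these calls, 63.8%, 49.2% and 29.3% unscaled, 60.0%, 58.1% and 43.0% after quantile normalization, and 85.9%, 67.8% and 21.5% scaled to all probe sets, with all-gene median ratios of 0.33, 0.08 and -0.24. No paired analysis was possible because each group holds 1 array. No detection calls or background readings were used, so signal over background is not known for the dim genes Relb, Map3k14 and Nfkb2.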

Other observations

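The genes beside Tnfrsf12a on chromosome 17 were read as well. Thoc6, a subunit of an mRNA export complex 1 gene away, read 79.5 at 48 h, 66.7 at 24 h and 31.4 on oil, with log2 ratios to oil of 1.34 and 1.09. Hcfc1r1, whose annotated span overlaps that of Tnfrsf12a, read 1592, 1257 and 1127, with log2 ratios of 0.50 and 0.16. Mmp25, Bicdl2, Cldn6 and Cldn9 lay below the rank minimum or had no probe set of their own. Around Tnfsf12 on chromosome 11, Polr2a, the large subunit of RNA polymerase II, read 133, 88.7 and 68.5 (0.96 and 0.37 in log2 over oil), the translation factor gene Eif4a1 0.51 and 0.07, Senp3 -0.20 at both times, and Zbtb4 -0.25 and -0.13. None of these 4 was 2-fold different. Further markers passed 2-fold at 24 h: Cidec, a lipid droplet protein of adipocytes, read 50.6 at 48 h, 85.1 at 24 h and 39.6 on oil, and Ngp, a neutrophil granule protein, read 18.4, 10.9 and 22.5, within 2-fold under the 3 other scalings and the higher floor. The 2 adipocyte markers compared summed to 519, 758 and 603 and the 3 Schwann cell markers to 2036, 2203 and 2251 on the 48 h, 24 h and oil arrays.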
